A study of Mus musculus with 4 samples.

Results

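The lysosome gene set comprises 37 mouse genes. They encode membrane proteins, transporters, hydrolases, saposins, progranulin and proton pump subunits of the lysosome, together with the transcription factors that control them. Members of the set were fixed by name, and a locus was taken as the gene body plus 10 kb on either side in the mm10/GRCm38 build. These 37 genes, of 21627 protein-coding genes in the RefSeq annotation, covered 336 of the 120423 regions formed by merging the accessible intervals of all 4 libraries. The assay was Omni-ATAC-seq (a transposase inserts sequencing adapters where DNA is open), run on cells from the bone marrow of C57BL/6J mice. Common myeloid progenitors and granulocyte-monocyte progenitors in 1 mixture (CMP/GMP), and monocytes, were each profiled in 1 wild-type (WT) and 1 Cxcr3-/- library. The series describes the cells as cultured in vitro and labels all 4 samples with hepatocellular carcinoma, a state produced elsewhere in the series with diethylnitrosamine and tetrachloromethane; the labels do not say whether the donors of the cultured cells received these agents, or how old they were. CXCR3 is a chemokine receptor, and the series asks what it does during macrophage differentiation.

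Lysosomes degrade material taken up by endocytosis, phagocytosis and autophagy, and are prominent in monocytes and macrophages. The vacuolar proton pump (V-ATPase) acidifies their lumen, the hydrolases work at that acid pH, and membrane proteins shield the membrane and export products. The transcription factors TFEB, TFE3 and MITF of the MiT family bind a short palindromic element, known as the CLEAR element, in the promoters of many lysosome genes. MCOLN1, a calcium channel of the lysosomal membrane, releases calcium that activates calcineurin, which dephosphorylates TFEB and lets it enter the nucleus.

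The deposited CMP/GMP lists held 69521 (WT) and 80171 (Cxcr3-/-) intervals, and the monocyte lists 98257 and 78244. Signal is given here as the number of tags stacked at an interval's summit, recovered from the deposited fold enrichment and −log10 p, and divided by a library factor to give scaled tags; the median over a whole list was 21 to 29 unscaled tags. The lowest 5% of called intervals reached at most 10, 13, 7 and 9 tags in the same order, so a region without an interval may still hold about that many or more. The summed scaled tags at the 10 CMP/GMP marker loci were 2450 and 2708 in progenitors (WT, then Cxcr3-/-) against 1302 and 1220 in monocytes. At the 10 monocyte and macrophage marker loci the sums were 1534 and 1704 against 2604 and 2195, which is the order the labels give; Csf1r, the macrophage growth factor receptor, had 236 and 257 against 546 and 399, while Ly6c2 and Ccr2, markers of classical monocytes, went the other way with 79.6 and 118 against 42.2 and 52.3 for Ly6c2, and 142 and 142 against 96.1 and 70.5 for Ccr2. Osteoclast marker loci also carried more summed signal in the monocyte libraries, with 1007 and 1168 in progenitors against 1558 and 1589 over 7 genes. Oscar (115 and 105 against 101 and 72.8) and Calcr (13.9 and 21.7 against 11.7 and 13.6) went the other way. In lists cut to the same length the osteoclast marker loci held 32 and 33 intervals against 36 and 39. Of the 6 T and NK cell markers Cd3e, Cd8a and Ncr1 had a sum of 0 in every library, while Cd3g, Cd4 and Bcl11b carried signal (list sums of 311 and 319 against 382 and 296). The 6 B cell marker loci summed to 638 and 569 against 505 and 408, and Ms4a1 among them had 34.1 and 48.1 against 113 and 115. The part of such cells in the results was not tested. The Cxcr3 gene itself, at chrX:101731535-101734147, had an interval at one end in all 4 libraries (43.0, 65.1, 36.8 and 26.2 scaled tags). A second region inside the gene, chrX:101733312-101733521, was called in Cxcr3-/- CMP/GMP (19.4) and WT monocytes (14.4) and not in WT CMP/GMP or Cxcr3-/- monocytes, so these lists do not show the deletion. These are bulk libraries, in which fewer cells with an open site and less opening per cell cannot be told apart, and with 1 library per group no difference below has a replicate check or a p-value.

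Promoter sequences were examined first because the MiT factors act through them. RefSeq promoter entries of the GRCm38.p6 build, running from 250 bases before to 50 bases after a start site, were found for 32 of the 37 genes; Asah1, Atp6v0d2, Atp6v1b2, Atp6v1h and Npc1 had none. The MiT site, TCACGTG or TCATGTG on either strand, occurred in 15 of the 32 genes, or 46.9% (exact 95% binomial interval 29.1 to 65.3), against 8.42% of 17273 protein-coding genes with an entry. Some genes have several windows, and per window the site occurred in 15 of 44, or 34.1%, against 7.29% of 21044. These shares use sequence alone, and the element was already known from lysosome gene promoters. Its palindromic form, TCACGTGA, the core of the CLEAR element, occurred in 4 genes, or 12.5% (3.51 to 29.0), against 1.42%; each such match also counts as an MiT site and as an E-box (CACGTG). Among genes whose window touches a region called in all 4 libraries the MiT site occurred in 13 of 29 lysosome genes, or 44.8%, against 8.78% of 9013.

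The stretches below carry these sites. The first 4 are the genes with the CLEAR core (Mcoln1, Ctsa, Gla and Cln3), Lamp1 has the most MiT sites of any member, the starts of Naglu and Atp6v0c are regions to which the comparisons return, and the Acp5 site lies outside every interval. Each is written 5′ to 3′ on the gene's strand, with MiT sites in capitals: Mcoln1 at chr8:3500425-3500502 (plus strand), Ctsa at chr2:164833738-164833772 (plus), Gla at chrX:134601171-134601255 (minus), Cln3 at chr7:126583329-126583407 (minus), Lamp1 at chr8:13159077-13159160 (plus), Naglu at chr11:101069998-101070048 (plus), Atp6v0c at chr17:24169451-24169489 (minus) and Acp5 at chr9:22130660-22130710 (minus).
Mcoln1: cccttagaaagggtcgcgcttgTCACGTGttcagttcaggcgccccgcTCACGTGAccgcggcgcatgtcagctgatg
Ctsa: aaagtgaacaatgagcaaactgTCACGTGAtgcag
Gla: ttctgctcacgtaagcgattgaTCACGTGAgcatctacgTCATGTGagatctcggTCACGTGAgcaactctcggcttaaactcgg
Cln3: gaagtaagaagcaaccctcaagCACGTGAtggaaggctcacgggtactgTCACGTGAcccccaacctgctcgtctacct
Lamp1: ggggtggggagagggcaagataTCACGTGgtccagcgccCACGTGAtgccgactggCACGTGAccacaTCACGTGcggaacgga
Naglu: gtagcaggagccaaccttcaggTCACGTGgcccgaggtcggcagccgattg
Atp6v0c: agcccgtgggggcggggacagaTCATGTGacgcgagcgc
Acp5: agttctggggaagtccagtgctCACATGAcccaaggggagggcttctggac

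Of 25 MiT sites in the 15 genes, 17 in 11 genes lay inside an interval of every library. Both Mcoln1 sites, all 3 Gla sites and all 3 Ctsa sites were among them, as were the sites of Gaa, Glb1, Grn, Naglu, Ppt1, Scarb2, Sgsh and Tpp1. Each of the 4 Lamp1 sites lay inside intervals of 2 libraries and the Atp6v0c site inside those of 3. The Acp5 site and both Cln3 sites, 3 in all, lay in no interval. The E-box occurred in 9 genes, or 28.1% (13.7 to 46.7), against 9.02% of all genes. For the other motifs searched the interval includes the share of all genes: the PU.1 motif GAGGAAGT in 6.25% (interval 0.766 to 20.8) against 3.67%, the C/EBP motif TTGCNNAA in 25% (11.5 to 43.4) against 11.8%, and the AP-1 motif TGANTCA in 18.8% (7.21 to 36.4) against 8.19%. Over open promoters alone the C/EBP motif occurred in 7 of 29 lysosome genes, or 24.1%, against 8.69%. The AP-1 motif occurred in 5 of the 29, or 17.2%, against 4.64%. No interval was set on these open-promoter shares, so the statement above covers all promoters only. A match is a run of letters and not a measured binding site.

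**Figure D1:**
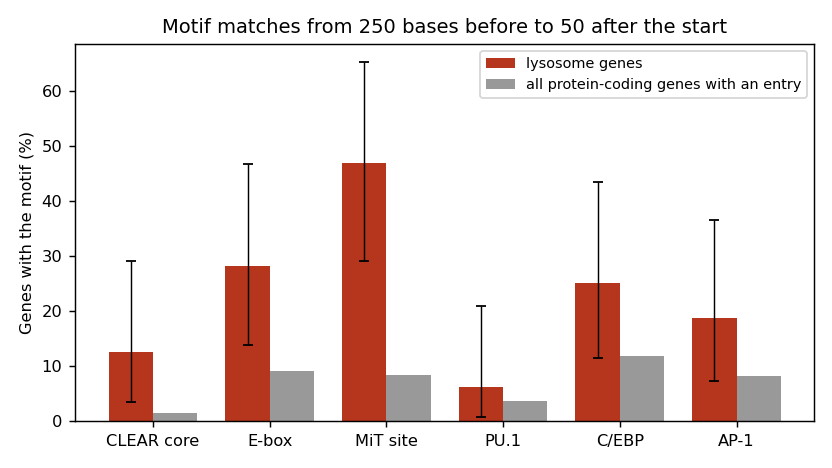
Share of genes (y axis, percent) whose RefSeq promoter window holds each motif (x axis), for the 32 lysosome genes with an entry (red, with exact 95% binomial intervals) and for all 17273 protein-coding genes with one (grey). The MiT site shows the widest gap, 46.9% against 8.42%.

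Gene starts of the set were accessible in both cell types. Of the 32 genes with a promoter entry, 30 had a region touching the window at a start, and 29 had one called in all 4 libraries, beside 9013 of all 17273 genes with an entry. The exceptions were Cln3 and Atp6v0a1, whose windows touched no region, and Acp5, the osteoclast acid phosphatase, whose start region was called in Cxcr3-/- CMP/GMP (14.0 scaled tags) and WT monocytes (5.39) alone. Atp6v0a1 did have a region across the end of its gene body, chr11:101009244-101009614, about 1.0 kb before the start site of its entry. It was called in all 4 libraries, with 68.2 (WT) and 81.4 (Cxcr3-/-) scaled tags in CMP/GMP and 70.0 and 59.1 in monocytes. The median level at the strongest start region of a gene was 61.9 (WT) and 62.4 (Cxcr3-/-) scaled tags in CMP/GMP, and 63.3 and 59.1 in monocytes. Npc2, which carries cholesterol in the lysosomal lumen, had 186, 175, 182 and 147 scaled tags in that order, in a region that is also the start of Isca2, and Mitf had 188, 178, 122 and 148; these were the highest 2 by the mean of the 4 libraries, and Mitf was the higher in 3 of them. Lamp1, a major glycoprotein of the lysosomal membrane, and Hexa were the weakest of those called throughout; Lamp1 had 17.7, 28.7, 40.4 and 25, and Hexa is given further on.

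**Figure D2:**
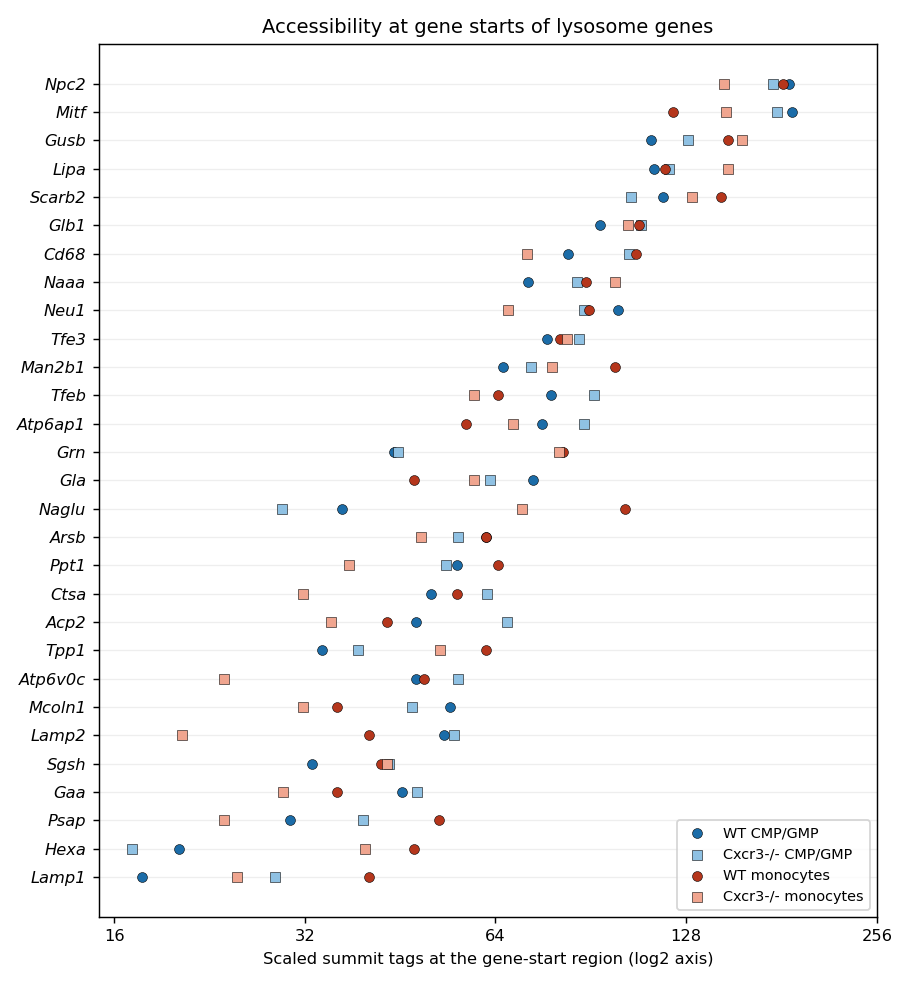
Scaled summit tags (x axis, log2 scale) at the strongest start region of each of the 29 lysosome genes called in all 4 libraries (y axis), 1 point per library. Levels run from 17.1 scaled tags at Hexa to 188 at Mitf. Both monocyte points lie to the right of both CMP/GMP points at Naglu, Hexa, Grn, Tpp1, Gusb, Scarb2, Man2b1 and Naaa. They lie to the left of both at Mitf, Tfeb, Mcoln1, Gaa, Gla, Acp2, Lamp2 and Atp6ap1.

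To ask which parts of the loci were open in 1 cell type, the longer lists were shortened to the length of the shortest, 69521, keeping the lowest q. Intervals dropped in this way could hold 25 unscaled tags, as at chr4:19893946-19894094 in Cxcr3-/- CMP/GMP. A region without a call is therefore not a region without signal. Calls in 1 cell type alone, here and below, refer to these shortened lists, and the other cell type may hold a weaker interval. The lysosome loci then held 192 (WT) and 196 (Cxcr3-/-) intervals in CMP/GMP, and 227 and 224 in monocytes. Of 280 regions with a call, 129 (46.1%) were called in all 4 libraries, against 39.3% of regions genome-wide. Called in both monocyte libraries and in neither CMP/GMP library were 40 regions in 21 genes, or 14.3% (exact 95% binomial interval 10.4 to 18.9), beside 13.3% of all regions, a share close to the background. Called in both CMP/GMP libraries and in neither monocyte library were 20 regions in 15 genes, or 7.14% (4.42 to 10.8), beside 11.6% of all regions. By genotype, 1 region (0.357%, beside 0.727% of all regions) was called in both Cxcr3-/- libraries alone and 2 (0.714%, beside 0.601%) in both WT libraries alone. Of these regions, 1 of the 40 in monocytes (at Mitf) and 1 of the 20 in CMP/GMP (at Atp6v0c) touched a start window of their own gene.

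Accessibility was next compared between monocytes and CMP/GMP within each genotype, as the log2 ratio of scaled tags over regions that both lists hold and whose mean is at least 30 unscaled tags. In WT cells 10 of 109 lysosome regions were more than 2-fold higher in monocytes, beside 10.8% of all regions, and 3 were more than 2-fold lower, beside 6.67%. In Cxcr3-/- cells 16 of 116 were higher, beside 10.9%, and 10 were lower, beside 9.78%. In both genotypes together, 6 of 100 regions were higher, beside 6.72%, and 2 were lower, beside 3.69%. The regions higher in both lay at Lipa, Naaa, Acp2, Acp5, Mitf and Naglu, the last within 10 kb of Atp6v0a1 as well, and those lower in both lay at Lipa and Atp6v0d2. The shares that were higher, 9.17%, 13.8% and 6.0%, lie near those of all regions, as does the 8.62% lower in Cxcr3-/- cells. The shares lower in WT cells (2.75%) and in both genotypes (2.0%) lie below those of all regions and rest on 3 and 2 regions. Per gene, the mean over a gene's regions had a median of 0.22 in WT cells, 0.23 above the median of all genes, with 28 of 37 genes above it. In Cxcr3-/- cells it was 0.18 above the median of all genes, with 24 of 36 above it. With the deposited fold enrichment in place of tags these differences were 0.02 and 0.05. Scaling on background tags instead moved the median of all genes from -0.01 to 1.21 in WT cells and from -0.20 to 0.41 in Cxcr3-/- cells, and then 66.6% and 26.5% of all regions, with 85 and 34 lysosome regions, were more than 2-fold higher in monocytes, against 0.662% and 2.57% lower; values relative to all genes do not depend on this choice.

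**Figure D3:**
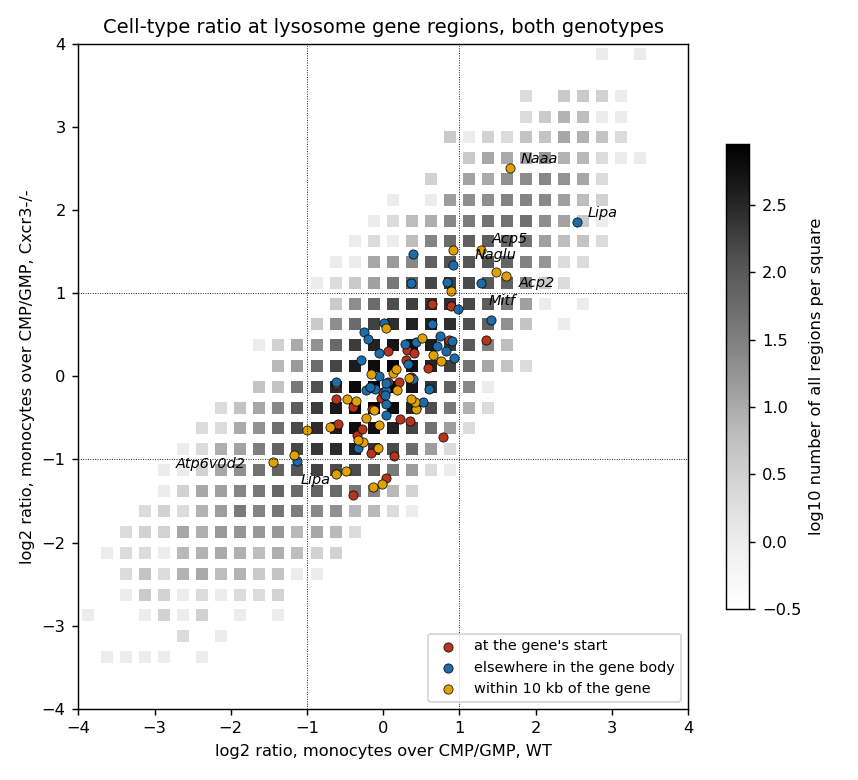
Log2 ratio of scaled tags, monocytes over CMP/GMP, in WT (x axis) and Cxcr3-/- cells (y axis) for the 100 lysosome regions with both values, coloured by place, over all 24376 regions (grey squares, darker for more regions). Dotted lines mark 2-fold; the 6 regions higher and 2 lower in both genotypes carry their gene's name, and the lysosome regions lie within the cloud of all regions.

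At gene starts alone the set lay above other genes in WT cells, a difference for which there is no test. The 30 lysosome start regions with a value had a median log2 ratio of 0.17 in WT cells against -0.09 over 7213 start regions of all genes, and 20 of the 30 were above 0. In Cxcr3-/- cells the medians were -0.19 for 29 lysosome starts and -0.27 for all starts, with 10 of 29 above 0. Away from starts, the WT median of 79 lysosome regions was 0.17 and that of all regions 0.12.

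The MiT transcription factors had open starts in every library. Mitf and Tfeb had cell-type differences both at the start and inside the gene body, while the main start of Tfe3 differed little. Mitf, the largest locus of the set (214 kb gene body) with 36 regions, had 13 (WT) and 14 (Cxcr3-/-) intervals in the CMP/GMP lists and 31 and 30 in the monocyte lists, or 13 and 13 against 23 and 24 in lists of equal length. Its main start (chr6:97806789-97807418) was lower in WT monocytes than in WT CMP/GMP, with a log2 ratio of -0.62 (95% counting interval -0.97 to -0.28), and the Cxcr3-/- ratio was -0.27 (-0.59 to 0.05). The counting intervals given here and below cover counting error only. A region 13.7 kb into the body (chr6:97820434-97821024) went the other way: 35.4 (WT) and 45.0 (Cxcr3-/-) scaled tags in CMP/GMP, and 86.2 and 97.8 in monocytes. Both monocyte libraries lay above both CMP/GMP libraries there, with log2 ratios of 1.28 (0.66 to 1.95) in WT and 1.12 (0.62 to 1.63) in Cxcr3-/- cells. A neighbouring region at chr6:97817944-97818453 had ratios of 0.98 and 0.81, and 1 at chr6:97855523-97856065 had no WT CMP/GMP interval and a Cxcr3-/- ratio of 1.37 (0.63 to 2.14).

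Mitf also had 6 regions called in both monocyte libraries alone, the most of any member. The strongest, at chr6:97826733-97827088, had 53.0 scaled tags in WT monocytes and 67.1 in Cxcr3-/- monocytes. The next, at chr6:97929204-97929675, touched the window of an alternative Mitf start and had 30.5 and 31.8 scaled tags. The remaining 4, at 34.3, 41.4, 76.7 and 165 kb into the body, had between 12.5 and 29.6 scaled tags. A single Mitf region, chr6:97819028-97819271, was called in both CMP/GMP libraries alone, with 31.6 and 37.2. Mitf regions were thus called in both directions within 10 kb of each other, since the CMP/GMP region lies between 2 regions that were higher in monocytes.

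**Figure D4:**
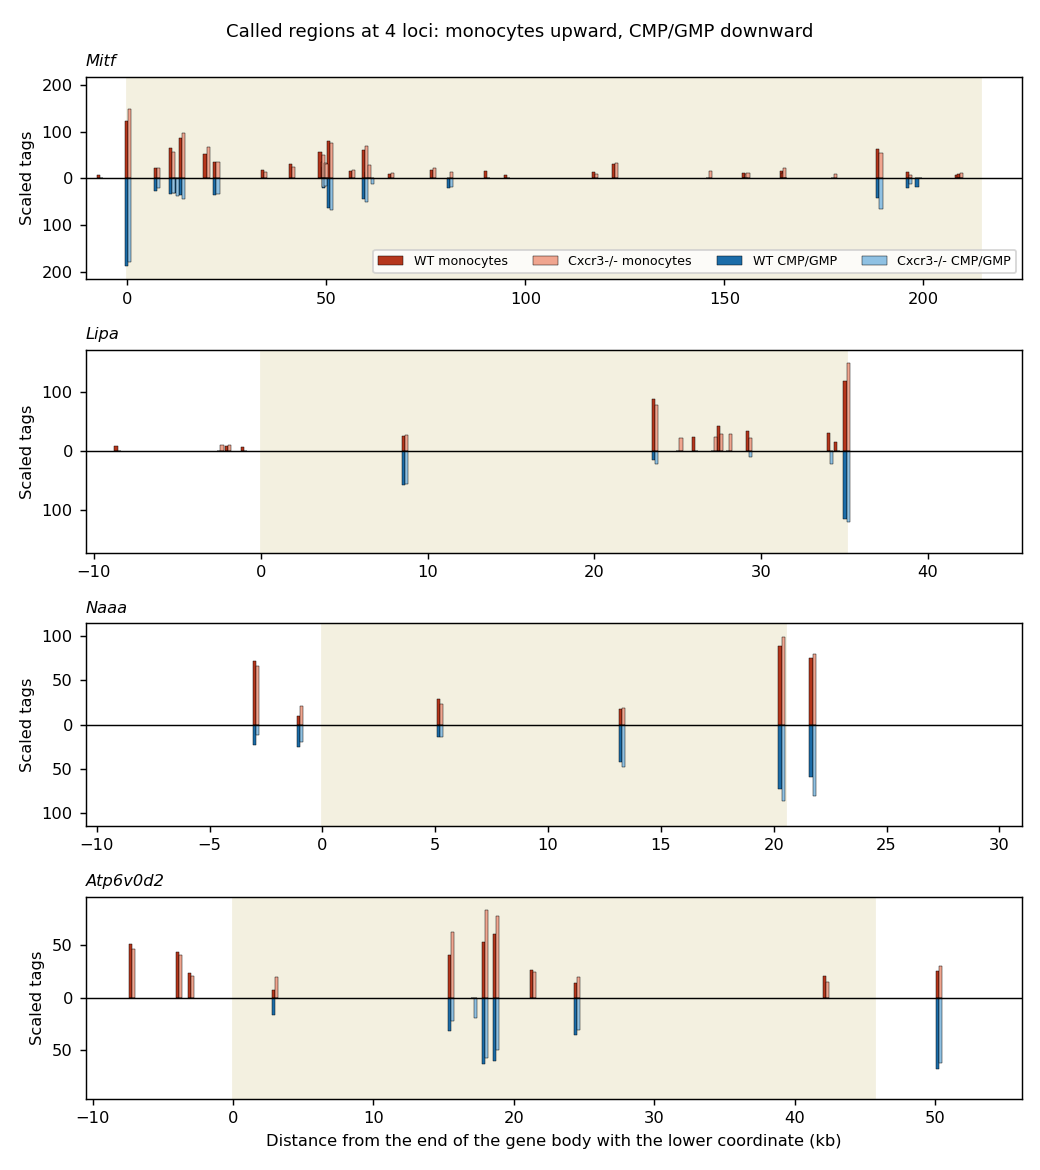
Scaled summit tags of every called region at 4 loci against distance from the lower-coordinate end of the gene body (kb, shaded span is the gene body), with monocytes plotted upward and CMP/GMP downward. Mitf, Lipa and Atp6v0d2 show bars on the monocyte side with none opposite, and the strongest bars of Mitf and Lipa, at the gene start, are present on both sides.

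Tfeb, the best known activator of lysosome genes, had its start at chr17:47736895-47738390 with 78.3 (WT) and 91.5 (Cxcr3-/-) scaled tags in CMP/GMP and 64.6 and 59.1 in monocytes, the order used from here on. Both monocyte values lay below both CMP/GMP values, with log2 ratios of -0.28 (-0.79 to 0.24) in WT and -0.63 (-1.13 to -0.15) in Cxcr3-/- cells. Inside the gene body, chr17:47768573-47769258 held 54.3, 89.9, 103 and 105 scaled tags, and chr17:47767108-47767387 was called in monocytes alone, with 48.5 in WT and 43.2 in Cxcr3-/- monocytes. The region chr17:47743084-47743624 was called in CMP/GMP alone, with 21.5 and 17.8. Tfe3, the third MiT factor of the set, differed little between libraries: its main start (chrX:7762425-7762921) held 77.1, 86.8, 80.8 and 83.0 scaled tags, a spread within the counting intervals of each ratio. A second Tfe3 start region, chrX:7763769-7764334, held 26.5, 24.8, 41.3 and 45.5. The weak region chrX:7776771-7776969 past the gene was called in both CMP/GMP libraries (20.2 and 13.2), and its 9.88 in WT monocytes fell outside the equal-length list. No Tfeb or Tfe3 region passed 2-fold in any comparison.

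Among the membrane proteins, Mcoln1 had lower values in monocytes. Its start, which holds the CLEAR core shown above, had 54.3, 47.3, 35.9 and 31.8 scaled tags, both monocyte libraries lying below both CMP/GMP libraries, and log2 ratios of -0.60 (-1.26 to 0.06) in WT and -0.57 (-1.27 to 0.10) in Cxcr3-/- cells, whose counting intervals include 0. The other Mcoln1 regions called in all 4 libraries overlap the neighbours Zfp358 and Pnpla6. The start of Lamp2, which like Lamp1 coats the inner face of the membrane, had 53.1, 55.0, 40.4 and 20.5 scaled tags, lowest in Cxcr3-/- monocytes, giving log2 ratios of -0.39 (-1.03 to 0.25; WT) and -1.43 (-2.26 to -0.67; Cxcr3-/-). Lamp2 also had 3 monocyte-only regions, of 15.9 to 22.4 scaled tags, and 1 CMP/GMP-only region of 12.6 and 17.1. The start of Scarb2, the receptor that brings glucocerebrosidase to lysosomes, held 118, 105, 145 and 131 scaled tags. Upstream of it, chr5:92508839-92509243 was lower in monocytes (64.4, 58.9, 28.7 and 30.7; log2 ratios -1.17 and -0.94), and chr5:92511328-92511574 was higher (no interval, 18.6, 43.1 and 52.3; Cxcr3-/- ratio 1.49). The start of Cd68, a macrophage glycoprotein of late endosomes, held 83.4, 104, 107 and 71.6 scaled tags, with a Cxcr3-/- ratio of -0.54 (-0.99 to -0.09). The Cd68 gene value was among the lowest in Cxcr3-/- cells at -0.74, over 4 regions. Apart from the Cd68 start, these regions overlap the neighbours Mpdu1 and Eif4a1. Lamp1 had a WT gene value of 0.22 over 2 regions and no value in Cxcr3-/- cells. Cln3, a membrane protein mutated in juvenile Batten disease, had its highest WT ratio, 1.42 (0.71 to 2.19), in chr7:126584462-126585024, which is also the start of Apobr; its gene value in Cxcr3-/- cells, 0.68, rests on this region alone. Cln3 had 1 monocyte-only region (16.2 and 18.2) and 1 CMP/GMP-only region (12.6 and 19.4).

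The cholesterol transporters hand cholesterol from the lumen (NPC2) to the membrane protein NPC1. Npc2 had WT and Cxcr3-/- gene values of 0.59 and 0.39, with a region past the gene at chr12:84748169-84748586 (29.1, 27.9, 53.9 and 56.9 scaled tags; ratios 0.89 and 1.03). In the Npc2 body 2 regions were called in monocytes alone, chr12:84761359-84761597 (35.9 in WT, 18.2 in Cxcr3-/-) and chr12:84766422-84766585 (31.4 and 33.0). Npc1 had 3 CMP/GMP-only regions in its body, of 14.0 to 22.5 scaled tags, and 1 monocyte-only region inside its neighbour Rmc1 (37.7 and 35.2). The Rmc1 region had 10.1 scaled tags in Cxcr3-/- CMP/GMP, below the equal-length cutoff. A region just outside the Npc1 body had 39.2, 50.4, 38.6 and 20.5 scaled tags, lowest in Cxcr3-/- monocytes, with a log2 ratio of -1.30 (-2.14 to -0.53) in Cxcr3-/- cells.

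The 10 glycosidases and sulfatases had gene values from -0.62 at Gla to 0.93 at Gusb in WT cells, 7 of them above the median of all genes. Gusb, beta-glucuronidase, owed its value to chr5:130000754-130001123 in its body, with 27.8 scaled tags in WT CMP/GMP, no separate interval in Cxcr3-/- CMP/GMP, and 110 (WT) and 107 (Cxcr3-/-) in monocytes, a WT log2 ratio of 1.98 (1.32 to 2.70). Naglu, which removes N-acetylglucosamine from heparan sulfate, had the start with the highest WT ratio of the set (chr11:101069675-101070399): 36.6, 29.5, 102 and 70.5 scaled tags, both monocyte libraries above both CMP/GMP libraries, and log2 ratios of 1.48 (0.88 to 2.12) in WT and 1.26 (0.65 to 1.88) in Cxcr3-/- cells. The MiT site of Naglu printed above lies in this region. Hexa, the alpha subunit of beta-hexosaminidase, had a start, inside Tmem202, of 20.2, 17.1, 47.6 and 39.8 scaled tags, a WT ratio of 1.23 (0.41 to 2.14) and the highest Cxcr3-/- gene value, 1.08. Its body region chr9:59544702-59545128 held 56.9, 48.8, 101 and 107, and the other 2 regions past 2-fold in Cxcr3-/- cells also lie in Tmem202. Gla, alpha-galactosidase A, had the lowest WT gene value (-0.62). Its start, shared with Hnrnph2, held 73.3, 62.8, 47.6 and 59.1 scaled tags, and its other contributing region, chrX:134585303-134586044, is the start of Rpl36a. Gla had 2 CMP/GMP-only regions, the stronger of which lies in Hnrnph2 (41.7 and 24.0).

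Arsb, arylsulfatase B, had 4 monocyte-only regions along its 171 kb body, of 11.4 to 28.4 scaled tags. Of its 2 CMP/GMP-only regions, the stronger was chr13:93773806-93774155 (31.6 and 47.3), with a Cxcr3-/- ratio of -1.29. It had 19.3 scaled tags in Cxcr3-/- monocytes and the weaker had 6.28 in WT monocytes, both below the equal-length cutoff. Neu1, a sialidase, and Sgsh, a sulfamidase, each had 1 monocyte-only region, of 34.1 and 23.9 scaled tags at Neu1 and 35.0 and 23.9 at Sgsh. Man2b1, alpha-mannosidase, had a weak monocyte-only region (12.6 and 11.4). Gaa, acid alpha-glucosidase, had a start of 45.5, 48.1, 35.9 and 29.6 scaled tags, both monocyte libraries lying below both CMP/GMP libraries, with ratios of -0.34 (-1.03 to 0.35) and -0.70 (-1.42 to -0.02), the latter among the 3 lowest Cxcr3-/- gene values. Its CMP/GMP-only region held 12.6 and 13.2, with 8.08 in WT monocytes below the equal-length cutoff. Glb1, beta-galactosidase, had 1 CMP/GMP-only region (17.7 and 17.1) and start ratios of 0.20 and -0.07.

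All 4 lipid and amide hydrolases lay above the median of all genes in both genotypes. Lipa, the lysosomal acid lipase that releases cholesterol from cholesteryl esters, had the region with the highest WT ratio of the set, chr19:34515745-34516140, 11.6 kb into the gene. It held 15.2, 21.7, 88.0 and 78.5 scaled tags (12, 28, 98 and 69 unscaled), both monocyte libraries being far above both CMP/GMP libraries, with log2 ratios of 2.54 (1.67 to 3.54) in WT and 1.85 (1.20 to 2.54) in Cxcr3-/- cells. With the deposited fold enrichment in place of tags these ratios were 0.96 and 0.53. Deeper in the gene, chr19:34500806-34501083 went the other way, with 56.9, 55.0, 26 and 27.3 scaled tags and ratios of -1.13 (-1.85 to -0.42) and -1.01 (-1.74 to -0.33); scaled on background tags its WT ratio was 0.10. The Lipa start itself held 114, 120, 118 and 149 scaled tags and had WT and Cxcr3-/- ratios of 0.06 and 0.31. Monocyte-only regions lay at chr19:34519760-34519948 (43.1 and 29.6) and chr19:34521432-34521760 (34.1 and 22.7). The latter had 10.1 scaled tags in Cxcr3-/- CMP/GMP, below the equal-length cutoff. The cell-type differences of Lipa thus lay in its body and not at its start.

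Naaa, an acid amidase that cleaves N-acylethanolamines, had the highest Cxcr3-/- ratio of the set in chr5:92254559-92254836, which lies past the gene inside Ppef2. The region held 22.7, 11.6, 71.8 and 66.0 scaled tags (18, 15, 80 and 58 unscaled), with log2 ratios of 1.66 (0.91 to 2.48) in WT and 2.50 (1.67 to 3.43) in Cxcr3-/- cells, and both stayed past 2-fold with the deposited fold enrichment (1.59 and 2.15). Within Naaa, chr5:92270494-92271357 was lower in monocytes, with 41.7, 48.1, 17.9 and 18.2 scaled tags. Ppt1, palmitoyl-protein thioesterase, had a body region at chr4:122838427-122838784 with 50.5, 46.5, 95.2 and 118 scaled tags and ratios of 0.91 (0.38 to 1.48) and 1.35 (0.87 to 1.83). Its 3 monocyte-only regions, the strongest with 48.5 and 47.8, lie in the neighbour Cap1, and its CMP/GMP-only region at the end of the gene held 21.5 and 19.4. Asah1, acid ceramidase, had 1 monocyte-only region (27.8 and 29.6) and a body region of 32.9, 20.9, 42.2 and 45.5 scaled tags with a Cxcr3-/- ratio of 1.12 (0.38 to 1.88).

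The proteases Ctsa and Tpp1 differed in where their signal lay. Ctsa, cathepsin A, has 2 start regions: chr2:164833193-164834054, which holds the printed CLEAR core and is also the start of Neurl2, had 25.3, 31.8, 64.6 and 43.2 scaled tags and a WT ratio of 1.35 (0.62 to 2.15), while chr2:164832715-164833137 had 50.5, 62.0, 55.7 and 31.8 and a WT ratio of 0.14. The start of Tpp1, a tripeptidyl peptidase, had 34.1, 38.8, 61.9 and 52.3 scaled tags, with both monocyte libraries higher and ratios of 0.86 (0.20 to 1.56) and 0.43 (-0.18 to 1.04).

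Both acid phosphatases had regions that were higher and regions that were lower in monocytes. For Acp2, lysosomal acid phosphatase, chr2:91196622-91197184 held 20.2, 20.2, 61.9 and 46.6 scaled tags, with ratios of 1.62 (0.82 to 2.50) and 1.21 (0.47 to 1.98); this region lies inside Nr1h3, which encodes the nuclear receptor LXR alpha. A region in the Acp2 body, chr2:91206308-91206937, had no WT CMP/GMP interval and 19.4, 58.4 and 64.8 scaled tags in the other 3 libraries, with a Cxcr3-/- ratio of 1.74 (1.04 to 2.48). For Acp5, chr9:22119334-22119883 held 24.0, 19.4, 58.4 and 55.7 scaled tags, with ratios of 1.28 (0.53 to 2.10) and 1.52 (0.80 to 2.28). Its CMP/GMP-only region, chr9:22122167-22122432, had 31.6 and 34.1 against 15.3 and 13.7, the monocyte values being below the equal-length cutoff. Lower in Cxcr3-/- monocytes than in Cxcr3-/- CMP/GMP were the Acp2 start (48.0, 66.7, 43.1 and 35.2; ratio -0.92, -1.56 to -0.31) and the Acp5 flank at chr9:22116911-22117348, the start of Elof1 (44.2, 65.9, 40.4 and 26.1; ratio -1.33, -2.07 to -0.65); the WT ratios were -0.16 and -0.13.

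Of Grn and Psap, Grn, which encodes progranulin, had the clearer cell-type difference. Its start (chr11:102430173-102430521) held 44.2, 45.0, 81.7 and 80.7 scaled tags, so that the genotypes nearly coincided within each cell type, with ratios of 0.89 (0.31 to 1.49) and 0.84 (0.32 to 1.37). Upstream, chr11:102424806-102424997 (31.4 and 22.7) and chr11:102425352-102425910 (41.3 and 35.2) were called in monocytes alone. Psap, the precursor of the saposins that present sphingolipids to hydrolases, had 1 monocyte-only region at chr10:60269621-60269988 (42.2 and 35.2), with 15.5 scaled tags below the equal-length cutoff in Cxcr3-/- CMP/GMP.

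The V-ATPase subunits were mixed. Atp6v0d2, a subunit abundant in osteoclasts and macrophages, had 5 monocyte-only regions, second to Mitf. The strongest, chr4:19869394-19869958, had 51.2 scaled tags in WT and 46.6 in Cxcr3-/- monocytes, and chr4:19872902-19873097 had 44 and 40.9. The other 3 lay between 14.8 and 26.9. At the opposite end of the locus, chr4:19926896-19927363 was lower in monocytes, with 68.2, 62.8, 25.1 and 30.7 scaled tags and ratios of -1.44 (-2.15 to -0.76) and -1.03 (-1.72 to -0.39), which scaling on background tags brought to -0.21 and -0.42. In the body, chr4:19892278-19892485 held 31.6, 22.5, 41.3 and 62.5, with ratios of 0.39 and 1.48. The osteoclast marker loci, whose summed signal was also higher in the monocyte libraries with Oscar and Calcr the other way, are given above. The part of osteoclast-like cells in the Atp6v0d2 regions was not tested.

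Atp6v0a1 had a WT gene value of 0.76 that rests on 2 regions, 1 of which is the Naglu start, and 1 monocyte-only region (21.6 and 17.1). The start of Atp6v0c, the proton-carrying ring subunit, held 48.0, 55.8, 49.4 and 23.9 scaled tags. A second start region of Atp6v0c, chr17:24168593-24168922, was called in CMP/GMP alone (27.8 and 38), and chr17:24172309-24172512 in monocytes alone (36.8 and 26.1). Atp6v1b2 had 2 monocyte-only regions (33.2 and 31.8 at the stronger) and 2 CMP/GMP-only regions (27.8 and 23.3 at the stronger), with a WT gene value of -0.33. Atp6v1h had 1 weak monocyte-only region (11.7 and 12.5), and the start of Atp6ap1 held 75.8, 88.4, 57.5 and 68.2 scaled tags.

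The Cxcr3-/- and WT libraries were compared within each cell type to see whether loss of the receptor moved these loci. In CMP/GMP none of 107 lysosome regions was more than 2-fold higher or lower in Cxcr3-/- cells, beside 0.139% and 0.136% of all regions. The median gene value was 0.01 above that of all genes. It ran from -0.41 at Hexa, followed by Gla (-0.28) and Man2b1 (-0.27), to 0.40 at Sgsh, followed by Acp5 (0.34) and Npc1 (0.32). In monocytes 0 of 131 regions was more than 2-fold higher, beside 0.264%, and 2 were lower, beside 0.401%. Both lay at gene starts. The Psap start (chr10:60277509-60277963) held 30.3, 39.5, 52.1 and 23.9 scaled tags, the Cxcr3-/- monocytes being lowest of the 4 libraries and the WT monocytes highest, with a monocyte log2 ratio of -1.12 (-1.92 to -0.38). The Atp6v0c start (chr17:24169359-24169890), at 48.0, 55.8, 49.4 and 23.9, had a ratio of -1.05 (-1.85 to -0.30). With the deposited fold enrichment these were -0.66 and -0.44, and neither passed 2-fold.

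Across the 29 gene starts with a value, Cxcr3-/- over WT in monocytes had a median log2 ratio of -0.26, with 21 below 0 and 8 above; in CMP/GMP the median was 0.15 over 27 starts, with 9 below 0. Counting all start regions, the monocyte median was -0.25 for 32 lysosome regions, 10 of them above 0, against -0.07 for 7196 start regions of all genes, 3011 of them above 0. In CMP/GMP it was 0.17 with 20 of 29 above 0, against 0.09 with 4815 of 7552 above 0 for all genes. At starts the sign of the median in each cell type was thus that of all starts. Elsewhere in the loci the monocyte median of 99 lysosome regions was -0.13, with 34 above 0. Over all 23456 regions away from starts it was 0.02, with 12395 above 0. The CMP/GMP medians away from starts were 0.08 for lysosome regions and 0.03 for all. The lowest gene values in monocytes were those of Lamp2 (-0.98), Lamp1 (-0.64) and Naglu (-0.58), and the highest those of Atp6v0d2 (0.28), Scarb2 (0.16) and Asah1 (0.08). The Lamp2 start ratio was -0.98 (-1.86 to -0.16), and those of Ctsa, Ppt1 and Cd68 were -0.81 (-1.50 to -0.14), -0.78 (-1.43 to -0.17) and -0.58 (-1.04 to -0.12). At Mitf, Lipa and Gla the start ratios were above 0, at 0.28, 0.33 and 0.31, with counting intervals that include 0. Per gene the set's median lay 0.12 below that of all genes, 0.02 below it with the deposited fold enrichment, and 0.03 above it with a mean of at least 60 unscaled tags. Scaling on background tags moved the median of all genes from -0.06 to -0.58 in monocytes and from 0.07 to 0.16 in CMP/GMP; 9.24% of all regions and 25 lysosome regions were then more than 2-fold lower in Cxcr3-/- monocytes, and 0.00326% of all regions higher. The low Cxcr3-/- monocyte values are also the numerator of the Cxcr3-/- cell-type ratios, so the negative cell-type ratios of Lamp2 and Atp6v0c and the genotype ratios share that library.

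**Figure D5:**
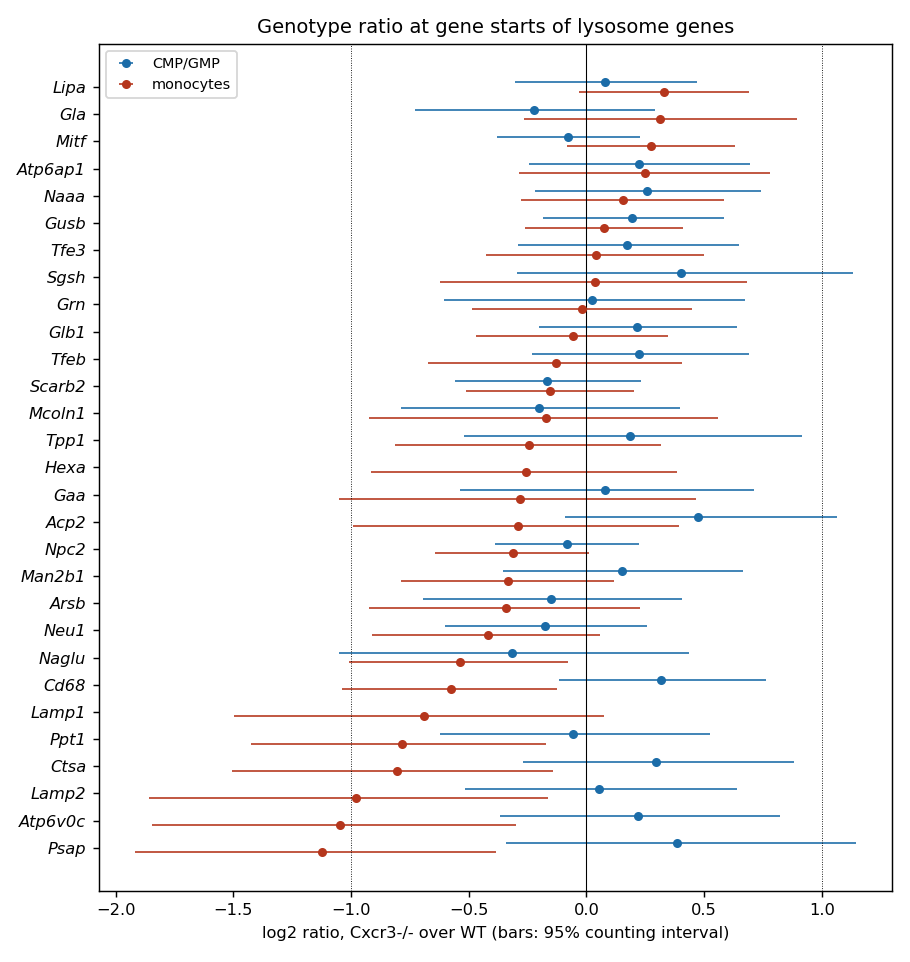
Log2 ratio of scaled tags, Cxcr3-/- over WT (x axis), at the strongest start region of each lysosome gene (y axis) in CMP/GMP (blue) and monocytes (red), with 95% counting intervals and dotted lines at 2-fold. Psap and Atp6v0c lie below -1 in monocytes, and most monocyte points lie left of 0 while most CMP/GMP points lie right of it.

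Other genes of the pathway were taken from 5 lists. For 12 further V-ATPase genes the median cell-type value lay 0.36 above that of all genes in WT cells and 0.13 above in Cxcr3-/- cells, with 6 and 3 of their 28 and 24 regions more than 2-fold higher and 0 lower; the largest WT values were those of Atp6v1c1 (0.89), Atp6v1d (0.80) and Atp6v1a (0.66), and Atp6v1c1 had a Cxcr3-/- value of -0.70. For 23 other hydrolases and cofactors the medians were -0.11 and 0.08 relative to all genes, with 1 and 3 of 56 and 59 regions higher and 2 and 2 lower; the largest WT values were those of Sumf1 (-1.06), Aga (-0.75) and Gm2a (-0.63). For 16 other membrane genes they were 0.00 and 0.02, with 5 and 8 of 35 and 44 regions higher and 3 and 1 lower, with WT values of 0.95 at Tpcn2 and 0.76 at Tmem9. For 18 genes of nutrient sensing and MiT control they were 0.14 and 0.23, with 8 and 6 of 47 and 47 regions higher and 1 and 3 lower, led by Fnip2 (0.97), Rptor (0.96) and Flcn (0.38). For 14 autophagy genes they were 0.16 and 0.07, with 4 and 2 of 39 and 39 regions higher and 1 and 1 lower, led by Becn1 (1.29), Uvrag (0.59) and Sqstm1 (0.54). The shares past 2-fold in these lists read against the 10.8% and 10.9% of all regions that were higher, and the 6.67% and 9.78% that were lower. Between genotypes, 1 of 41 autophagy regions was more than 2-fold higher in Cxcr3-/- CMP/GMP, beside 0.139% of all regions, 1 of 43 membrane-gene regions was higher in Cxcr3-/- monocytes, beside 0.264%, and 1 of 30 V-ATPase and 1 of 44 autophagy regions were lower there, beside 0.401%.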

How the data were processed

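The submitters' processing notes name Trim Galore, Bowtie2 and SAMtools as tools and mm10 as the build. Which program called the peaks is not stated there, nor whether the duplicate sequencing named in the labels' protocols was pooled. The authors deposited 1 interval list per library. The deposited fold enrichment is a ratio of summit tags to expected background, and the deposited −log10 p and −log10 q describe each summit. The deposited score was not used.

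The deposited fold and −log10 p together gave a whole tag number at each summit, for a Poisson background with 1 added tag; 0, 2, 1 and 0 intervals missed a tolerance of 0.001. Overlapping intervals (by 1 base) were merged. Scale factors (0.7915, 1.2898, 1.1139 and 0.8794, in the order WT and Cxcr3-/- CMP/GMP, WT and Cxcr3-/- monocytes) came from the median over 44591 regions called in all 4 libraries. A gene value is the mean over its regions. Counting intervals are exact 95% (Clopper-Pearson). A start region touches a RefSeq promoter window. Recovery and ratios were tested on simulated data. Python 3.11.15, pandas 2.3.3 and scipy 1.17.1 were used.

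Groups follow the labels. All 37 members are named; full values go to Tfeb, Tfe3, Mitf and Mcoln1, to members with a region past 2-fold in both genotypes or between genotypes, to those with a region called in 1 cell type alone, and to the 3 highest and 3 lowest gene values of each comparison. Of the other pathway lists, the 3 largest WT values are named, except for 1 gene that is not reported here. Members, lists and tests were chosen with earlier results of these data known. Alternatives were lists of equal length, −log10 q of at least 5, summits within 250 bp, loci without flank, another scaling, a mean of 60 tags or no minimum, and the deposited fold in place of tags; the comparison of motifs over open promoters was added after seeing the data.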

Additional observations from a re-analysis of the deposited data

How the results depend on the processing

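With 1 library per group, no replicate could be left out. No paired analysis was possible because the groups compared share fewer than 2 replicate numbers; a fit of cell type plus genotype over the 4 libraries, with the genotypes standing in for replicates, was not run. Without the 10 kb flank the interval counts fell from 192, 225, 290 and 254 to 126, 137, 183 and 163, and the CMP/GMP-only regions from 20 to 12. In WT cells 1 of 73 regions was then more than 2-fold lower in monocytes, beside 6.67% of all regions. In Cxcr3-/- cells 9 of 77 were higher and 5 lower, beside 10.9% and 9.78%. Scaled on background tags, 85 of 109 regions were higher and 0 lower in monocytes in WT cells (all regions 66.6% and 0.662%). In Cxcr3-/- cells 34 of 116 were higher and 0 lower (26.5% and 2.57%). With the same scaling, 25 of 131 were lower in Cxcr3-/- than in WT monocytes (9.24%). The WT ratios of the Lipa region at chr19:34500806 and the Scarb2 region at chr5:92508839 then turned from negative to 0.10 and 0.0604. With a mean of at least 60 tags, 3 of 39 regions were higher and 0 lower in WT cells (all regions 6.34% and 2.96%), 3 of 46 higher and 1 lower in Cxcr3-/- cells (6.54% and 6.18%), 0 of 47 lower in Cxcr3-/- than in WT monocytes (0.069%), and the median gene value of the monocyte genotype ratio lay 0.0278 above that of all genes. With no minimum, 13 of 157 regions were lower in WT monocytes than in WT CMP/GMP (16.5% of all) and 3 of 223 higher in Cxcr3-/- than in WT monocytes (1.91%). With the deposited fold enrichment, 2 of 109 regions were higher and 1 lower in WT cells (4.8% and 3.26% of all), 6 of 116 higher in Cxcr3-/- cells (5.72%), 1 of 107 lower in Cxcr3-/- CMP/GMP (0.0272%) and 0 of 131 lower in Cxcr3-/- monocytes (0.0391%); the medians lay 0.0156 (WT) and 0.0463 (Cxcr3-/-) above that of all genes, and -0.0153 from it for the monocyte genotype ratio. Loci without flank and other tag minimums change which regions enter. With background tags and with the deposited fold enrichment the same 109, 116, 107 and 131 regions entered the 4 comparisons. Background tags shift every ratio of a comparison by a constant. The cause of the other changes was not tested. Of 41 single-region values past 2-fold, 28 stayed past it in the same direction with background tags. All 28 were moved outward by that constant, so this count is no check on single regions. The values lower in monocytes all fell inside 2-fold there, 11 staying negative and 2 turning positive. With the deposited fold enrichment 14 of the 41 stayed past 2-fold in the same direction. The 40 monocyte-only regions ranged from 28 to 51 over the alternatives run. No call in a library is not absence, since the weakest 5% of called intervals in the full lists held at most 7 to 13 tags. Intervals outside the equal-length lists could hold more, such as 30 tags at chr17:24167057-24167208 in WT monocytes.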
